A study of Mus musculus with 22 samples.

Results

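Ataxin-1 and the genes around the Capicua repressor were followed in mouse liver across genotype and glucagon dose. The 5 genes, Atxn1, Atxn1l, Cic, Etv4 and Etv5, were taken by symbol from the 24475 genes of the deposited table, and each had 1 row. Atxn1 was chosen by its RPKM in these same libraries, in which its response to the infusion of glucagon at 30 µg/d differed between genotypes. Its levels with no infusion and at 30 µg/d are therefore given as a description, with no test. The partners were added for their known ties to Atxn1, after earlier results of these data were known.

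The 22 libraries came from livers of wild type mice (WT) and of mice that lack Gcg, the gene for glucagon (Gcg-/-). Each genotype had 3 uninfused libraries, 4 of the lower dose of 30 µg/d and 4 of the higher, 150 µg/d, and the series asks how glucagon shapes liver zonation. The labels state neither the ages and strains of the mice nor whether any mouse gave more than 1 library. The spread behind each p-value is that between libraries, which may be technical. The labels also do not say how the Gcg-/- allele was made or for how long glucagon was infused. No group is labelled as infused without glucagon. Effects of glucagon and of the infusion itself therefore cannot be told apart in the steps from no infusion. Liver receives glucagon from the pancreas, so that the WT groups had their own hormone and the uninfused Gcg-/- group lacked it.

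Ataxin-1 is a nuclear protein, best known because an expanded glutamine tract in it causes spinocerebellar ataxia. Atxn1l encodes its close relative ataxin-1-like. Both bind Capicua, the repressor encoded by Cic, and stabilise it. Capicua sits on short DNA elements and silences genes that receptor tyrosine kinases and the ERK pathway switch on. Among its best-known targets are Etv4 and Etv5, which encode transcription factors of the PEA3 group of ETS proteins. When ERK signalling is active, Capicua is phosphorylated and its targets are released, so that the level of Etv4 and Etv5 mRNA is often read as an output of this switch.

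Sequences just upstream of the genes are shown first because Capicua acts through short DNA words and glucagon through cAMP and CREB, whose site is the cAMP response element. Windows from 250 bases before to 50 bases after an annotated start (RefSeq, GRCm38.p6) were found for 3 of the 5 genes, with 1 window for Atxn1l, 2 for Cic and 2 for Etv5. The motifs searched on both strands were TGACGTCA (the cAMP response element), its shorter form TGACG, the Capicua octamers TGAATGAA, TGAATGGA, TCAATGAA and TCAATGGA, the core TGAATG, which lies inside the first 2 octamers only, and the ETS site CCGGAAGT. The window at the second, downstream start of Etv5 is printed for its repeated core, marked in capitals on either strand, and that of Atxn1l for its full cAMP response element, also in capitals.
Etv5, second start, minus strand, chr16:22438319-22438618: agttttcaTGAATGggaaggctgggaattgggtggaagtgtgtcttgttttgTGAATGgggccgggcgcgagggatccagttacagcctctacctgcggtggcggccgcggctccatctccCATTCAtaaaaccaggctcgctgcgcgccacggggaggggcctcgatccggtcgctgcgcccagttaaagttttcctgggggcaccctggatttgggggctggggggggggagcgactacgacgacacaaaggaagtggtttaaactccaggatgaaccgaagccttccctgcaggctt
Atxn1l, minus strand, chr8:109737731-109738030: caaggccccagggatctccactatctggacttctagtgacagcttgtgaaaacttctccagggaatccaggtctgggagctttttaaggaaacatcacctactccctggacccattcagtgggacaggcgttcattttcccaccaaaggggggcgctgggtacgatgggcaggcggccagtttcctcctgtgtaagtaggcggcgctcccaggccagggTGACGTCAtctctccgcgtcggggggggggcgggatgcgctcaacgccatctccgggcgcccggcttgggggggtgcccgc

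The core TGAATG occurred 3 times in this Etv5 window, beginning 242, 198 and 129 bases before the start. All 3 copies read on to TGAATGGG, which is not one of the 4 octamers searched. Of 32851 promoter windows of the same length, 12.7% held the core at least once and 0.17% held it at least 3 times. The first, upstream start of Etv5 held none of the motifs. The Atxn1l window held TGACGTCA beginning 31 bases before the start, a motif present in 1.79% of all windows, and 1 core. One of the Cic windows, at the downstream start, held 1 TGACG (20.8% of all windows), and the other held none of the motifs. No window of these genes held a Capicua octamer (3.84% of all windows) or the ETS site (3.89%). These matches describe letters only, since the series measured no binding.

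In liver the 5 mRNAs spanned a wide range of levels per transcript length. RPKM (read number set against transcript length and library depth) averaged 5.46 over the 22 libraries for Cic (Entrez 71722), 3.52 for Atxn1l (52335), 3.29 for Atxn1 (20238), 1.22 for Etv5 (104156) and 0.058 for Etv4 (18612). The first 4 passed the filter of a mean of at least 0.5 RPKM and were among the 11590 genes tested, where their means stood at the 48.2, 36.1, 34.2 and 13.4 percentiles. Etv4 did not pass and was examined separately. Between the lowest and the highest library Atxn1 varied 4.49-fold, Etv5 2.45-fold, Cic 1.46-fold and Atxn1l 1.4-fold. Atxn1 was thus the member that varied most among those tested, and its choice rests on that variation.

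**Figure D1:**
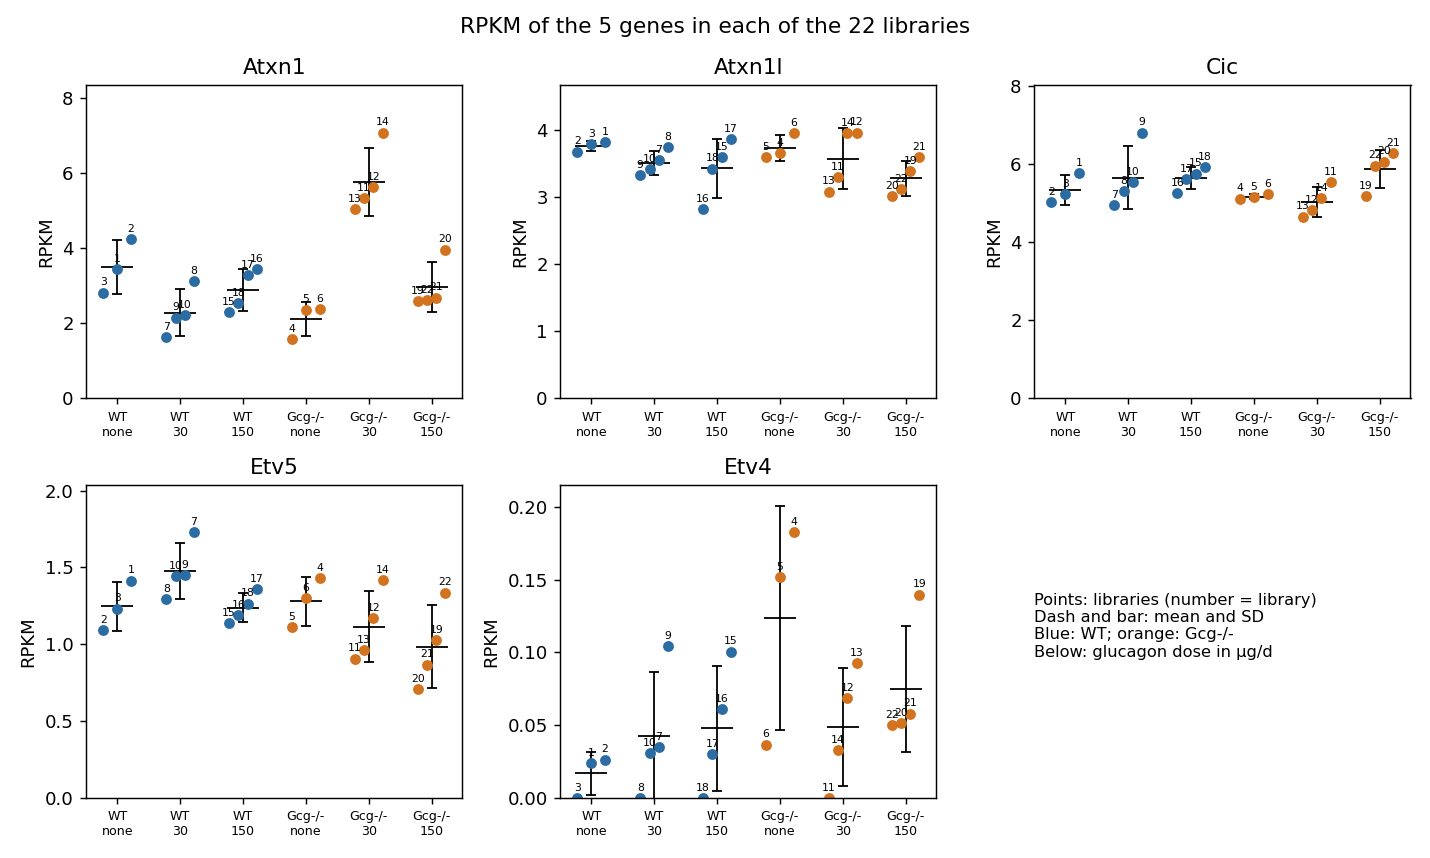
RPKM (vertical axes, from 0) of each gene in every library, by genotype and glucagon dose in µg/d. Points are libraries with their numbers, and the dash with its bar is the mean and SD of 3 or 4 libraries. Atxn1 in Gcg-/- at 30 µg/d lies between 5.04 and 7.07, above every other library.

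Depth was estimated from the steps between low values, which gave 11.2 to 17.8 M reads per library (median 13.8 M), with 11.2 to 13.8 M in Gcg-/- at 30 µg/d. Hepatocyte markers such as Alb and Ttr summed to 32210 to 70990 RPKM over 7 genes, where all genes of a library summed to 558222 to 596386. No marker list of another cell type summed to over 219.4 RPKM. Libraries 4 (Gcg-/-, no infusion) and 13 (Gcg-/-, 30 µg/d) stood apart in sex-biased genes. Over 8 female-biased genes they summed to 391 and 98.3 RPKM, while none of the other 20 libraries exceeded 21.7, and the 10 male-biased genes summed to 1248 and 3384 RPKM, the lowest of all libraries. Of 8 genes known to respond to glucagon, 4 were lower and 1 higher in uninfused Gcg-/- than in uninfused WT liver (limma), with 1.54% of all genes called. In Gcg-/- liver against no infusion, 1 was called lower at 30 µg/d, and 6 higher and 1 lower at 150 µg/d (0.0863% and 2.72% of all genes). Their median log2 differences were 1.15 and 2.18. In WT liver 0 were called at 30 and at 150 µg/d (0% and 0.293% of all genes). The log2 differences of Atxn1 that use library 4 or 13, and the calls of Rps6ka1, Hdac2 and Atxn2, are given with and without them. Calls of glucagon-responsive and cell marker genes are given with them only. Without both, the number of genes called between the uninfused genotypes fell from 179 to 22.

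Atxn1 (chromosome 13, 45549755 to 45965008, minus strand, GRCm38) was highest by far in Gcg-/- liver at 30 µg/d. With no infusion it stood at 3.43, 4.24 and 2.81 RPKM in WT libraries 1, 2 and 3 and at 1.57, 2.36 and 2.37 RPKM in Gcg-/- libraries 4, 5 and 6. At 30 µg/d it was at 1.61, 3.12, 2.14 and 2.21 RPKM in WT libraries 7 to 10. In Gcg-/- libraries 11 to 14 it was at 5.33, 5.62, 5.04 and 7.07 RPKM. All 4 of these libraries lay above all of the other 18, the highest of which was the uninfused WT library 2. Such a separation upward from every other library was found for 8 of the 11590 genes (0.0690%), a share from which nothing is read because the pattern chose the gene.

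The levels of Atxn1 at 150 µg/d did not separate the genotypes. WT libraries 15 to 18 stood at 2.28, 3.43, 3.29 and 2.52 RPKM and Gcg-/- libraries 19 to 22 at 2.59, 3.96, 2.68 and 2.61 RPKM, so that the ranges overlapped widely. No library of this comparison was used in choosing the gene, so its difference of means is independent of the choice. The spread behind its SE, interval and p was pooled over all 22 libraries, those of the choice included. The means were 2.88 ± 0.564 RPKM in WT and 2.96 ± 0.667 in Gcg-/- (SD, n = 4 each). The difference of log2(RPKM + 1), Gcg-/- minus WT, was 0.03 ± 0.152 (SE), with a 95% interval from −0.29 to 0.34 (limma adjusted p = 1). In this comparison 3 of the genes tested were called (0.0259%) and none of the 4 tested members was.

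Ordered by mean RPKM, Atxn1 ran from Gcg-/- at 30 µg/d (5.77 ± 0.902) through uninfused WT (3.49 ± 0.719), Gcg-/- at 150 µg/d (2.96 ± 0.667), WT at 150 µg/d (2.88 ± 0.564) and WT at 30 µg/d (2.27 ± 0.625) to uninfused Gcg-/- (2.10 ± 0.455). Only the first step in this order separated neighbouring groups without overlap. Each of the other neighbouring pairs overlapped in range and differed by less than 1 SD of either group, apart from the step between WT at 150 and at 30 µg/d, where the ranges overlapped as well.

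As a description of the pattern by which Atxn1 was chosen, its log2(RPKM + 1) in Gcg-/- liver was 1.13 ± 0.164 (SE) higher at 30 µg/d than with no infusion, a 2.75-fold ratio of mean RPKM. In WT the same step was −0.46 ± 0.164, and the difference between both steps was 1.59 ± 0.232. Between genotypes at 30 µg/d its level on this scale was 1.06 ± 0.152 higher in Gcg-/- liver, or 1.11 without libraries 4 and 13. Without libraries 4 and 13 the step in Gcg-/- was 1.05 and the difference between the steps 1.52. At 150 µg/d the step from no infusion was 0.35 ± 0.164 in Gcg-/- and −0.21 ± 0.164 in WT, and both steps share their uninfused libraries with those at 30 µg/d. Without library 4, or without libraries 4 and 13, the step in Gcg-/- at 150 µg/d was 0.22. Uninfused Gcg-/- liver was 0.53 below uninfused WT on this scale (−0.53 ± 0.176), or −0.41 ± 0.191 without libraries 4 and 13. Of 7 endothelial markers 5 were called higher in uninfused Gcg-/- than in uninfused WT liver (limma), where 1.54% of all genes were called. The part of endothelial cells in the difference of Atxn1 was not tested. Atxn1 did not overlap between the groups in 4 of the 7 pairs of groups compared. Those were Gcg-/- against WT with no infusion (24.8% of all genes tested did not overlap there), Gcg-/- at 30 and at 150 µg/d against no infusion (8.76% and 13.5%) and Gcg-/- against WT at 30 µg/d (6.32%). The groups overlapped in the other comparisons, namely WT at 30 and at 150 µg/d against no infusion, where 7.49% and 14.5% of all genes did not overlap, and the genotypes at 150 µg/d (1.48%).

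**Figure D2:**
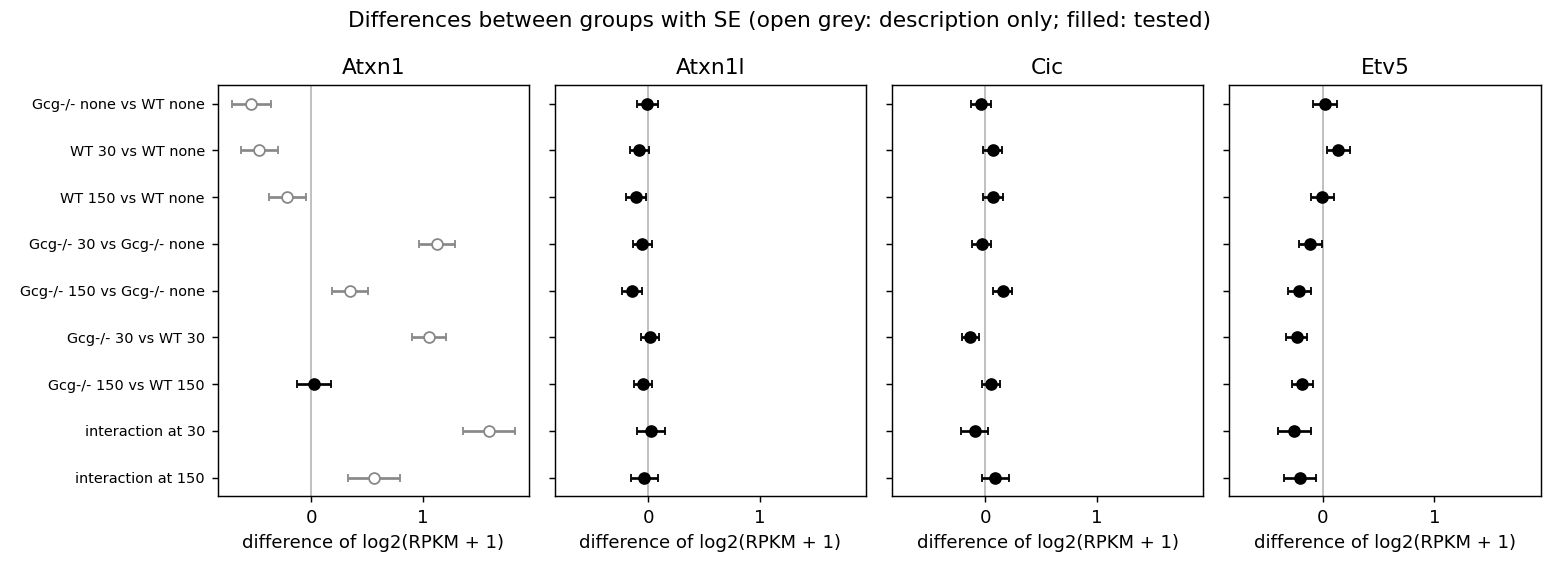
Difference of log2(RPKM + 1) between groups (horizontal axes) with limma's SE, for the 4 members above the filter; open grey points are descriptions of the pattern that chose Atxn1 and filled points were tested. Atxn1 reaches 1.59 at the interaction at 30 µg/d, while every point of the other 3 genes lies between −0.25 and 0.15.

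The 3′ end of Atxn1 overlaps Gmpr, the gene of guanosine monophosphate reductase on the opposite strand, over 4046 bases (chromosome 13, 45507444 to 45553800). The libraries were strand-specific, but whether reads were counted by strand is not stated, and reads from the overlap may be mixed. Gmpr stood between 0.233 and 0.621 RPKM in all 22 libraries, and at 0.358 ± 0.112 RPKM (SD, n = 4) in Gcg-/- at 30 µg/d, where its range of 0.252 to 0.501 lay within that of the uninfused WT libraries. The next gene beyond it, Mylip, an E3 ubiquitin ligase that degrades lipoprotein receptors, was at 5.13 ± 1.70 RPKM in Gcg-/- at 30 µg/d and 5.49 ± 0.414 in uninfused Gcg-/- liver (n = 3). Neither neighbour set the group at 30 µg/d apart as Atxn1 did. Antisense genes annotated inside Atxn1 were not analysed here.

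Atxn1l, the relative that shares the Capicua partnership, hardly varied. It stood at 3.81, 3.67 and 3.78 RPKM in uninfused WT and at 3.65, 3.59 and 3.94 in uninfused Gcg-/- libraries. At 30 µg/d it was at 3.54, 3.74, 3.32 and 3.41 RPKM in WT and 3.29, 3.95, 3.08 and 3.95 in Gcg-/- liver, where Atxn1 was at its highest. With 150 µg/d it was at 3.59, 2.81, 3.86 and 3.42 RPKM in WT and at 3.38, 3.01, 3.59 and 3.11 in Gcg-/- liver. All groups overlapped in each of the 7 pairs compared. Over the 9 comparisons its difference of log2(RPKM + 1) lay between −0.15 and 0.03, and its limma adjusted p was 0.378 at the lowest.

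Cic (chromosome 7, 25267704 to 25294159), the repressor itself, was the highest of the 5 genes. It stood at 5.77, 5.01 and 5.22 RPKM in uninfused WT and at 5.11, 5.14 and 5.23 in uninfused Gcg-/- libraries. At 30 µg/d WT libraries were at 4.94, 5.31, 6.80 and 5.53 RPKM and Gcg-/- libraries at 5.54, 4.81, 4.65 and 5.11. With 150 µg/d they were at 5.75, 5.25, 5.62 and 5.91 in WT and at 5.18, 6.06, 6.27 and 5.96 in Gcg-/- liver. The lowest group mean, 5.03 ± 0.391 RPKM (SD, n = 4), belonged to Gcg-/- at 30 µg/d and the highest, 5.86 ± 0.478 (n = 4), to Gcg-/- at 150 µg/d, and these groups overlapped. Differences of log2(RPKM + 1) lay between −0.14 and 0.15 over the 9 comparisons, with a limma adjusted p of 0.35 at the lowest. The table gives 1 value for the gene, so the long and short Capicua forms that start at its 2 promoters were not separated.

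Etv5 (chromosome 16, 22381309 to 22439719), the Capicua target measured above the filter, ran lower in infused Gcg-/- libraries without passing the test. In uninfused liver it was at 1.41, 1.09 and 1.23 RPKM in WT and at 1.43, 1.11 and 1.30 in Gcg-/-. At 30 µg/d it was at 1.73, 1.29, 1.45 and 1.44 RPKM in WT and at 0.906, 1.17, 0.962 and 1.42 in Gcg-/- liver. At 150 µg/d it was at 1.14, 1.19, 1.36 and 1.26 RPKM in WT and at 1.02, 0.706, 0.867 and 1.34 in Gcg-/- liver. In each infused Gcg-/- group 3 of 4 libraries lay below all 4 WT libraries of the same dose, and the remaining library, 14 or 22, lay within the WT range. The difference between genotypes at 30 µg/d, −0.23 ± 0.0958 (SE) in log2(RPKM + 1), was singled out after its value was seen, as the only tested difference of these genes with an unadjusted p under 0.05, which 1383 of the 11590 genes had in this comparison. Its limma adjusted p was 0.341. At 150 µg/d it was −0.18 ± 0.0958 (limma adjusted p = 1), also given after its value was seen. An estimated 42 to 103 reads per library, for the 4.1 kb of the joined annotated exons of Etv5, lay behind these values.

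Among Atxn1l, Cic and Etv5, none passed in any of the 9 comparisons. The share of all genes called was 1.54% for Gcg-/- against WT with no infusion, 0.293% for 150 µg/d in WT, 0.0863% for 30 µg/d and 2.72% for 150 µg/d in Gcg-/-, 0.328% for the genotypes at 30 µg/d and 0.0259% at 150 µg/d. For 30 µg/d in WT limma called no gene (0%, with 657 of 11590 at an unadjusted p under 0.05), and for the difference between genotypes in the response to 150 µg/d it called none either (0%, with 1187). For the difference in response at 30 µg/d the share was 0.00863%, or 1 gene, and nothing about Atxn1 is read from it because that contrast was used in its choice. Across the 27 comparisons of the 3 genes, 95% intervals reached from −0.56 to 0.36 on the log2 scale at the widest, both ends for Etv5. A missed threshold does not show that these 3 mRNAs were unchanged, and each interval gives the differences that remain possible.

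Etv4 (chromosome 11, 101769742 to 101785371) was near the limit of detection in liver. At the depths above, a transcript length of 2.35 kb brought its values closest to whole reads and was picked for that. The values then lay within 0.0163 of a read, which is no check of the length. They came to 0 to 5 reads per library, 41 in all, and the counts below use this length. With the 3.1 kb of its joined annotated exons the estimate was 0 to 7 reads. The uninfused WT libraries held 1, 1 and 0 reads and the uninfused Gcg-/- libraries 5, 5 and 1, the last in library 6. At 30 µg/d there were 1, 0, 3 and 1 reads in WT and 0, 2, 3 and 1 in Gcg-/- libraries. At 150 µg/d there were 4, 2, 1 and 0 reads in WT and 4, 2, 2 and 2 in Gcg-/- libraries. The uninfused genotypes did not overlap in RPKM (0 to 0.0263 against 0.0366 to 0.182), which was also so for 24.8% of the genes tested, and the exact two-sided permutation test gave p = 0.1, the smallest that 3 against 3 libraries allow. Over the 7 pairs of groups compared the exact permutation p adjusted for them was 0.467 at the lowest. Where no read was counted, 3 reads at 2.35 kb would have been worth 0.0899 to 0.114 RPKM. The absence of Etv4 thus cannot be shown at this depth, and these limits cover counting error only.

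Other targets of Capicua and genes of the ERK feedback loop were taken as a list of 20, of which 13 were tested. The list holds the dual-specificity phosphatases that switch off ERK (Dusp4, Dusp5, Dusp6), the Sprouty and Spred inhibitors, cyclin D genes and early response genes such as Egr1, besides the ETS genes. None of the 13 passed limma in any of the 9 comparisons, and the lowest adjusted p was 0.12. Between genotypes at 30 µg/d 4 were higher and 9 lower in Gcg-/-, with a median log2 difference of −0.14, where the median of all genes tested was 0. Other lists described below had medians of −0.15 (genes of other ataxias), −0.106 (RAS-ERK cascade), −0.052 (kinases and other regulators) and −0.03 (corepressors) in this comparison. In WT at 30 µg/d against no infusion, 10 of the 13 were higher and 3 lower, with a median of 0.148. Dusp6, the ERK phosphatase, was at 12.2 ± 3.79 RPKM in Gcg-/- and 24.4 ± 6.25 in WT liver at 30 µg/d (SD, n = 4 each, limma adjusted p = 0.327), with ranges of 9.53 to 17.7 and 16.9 to 32.2 that overlapped. Dusp4 was at 0.657 ± 0.171 and 1.59 ± 0.737 RPKM (limma adjusted p = 0.168), without overlap, which was also so for 6.32% of all genes tested. Spry4, an inhibitor of the same pathway, went the other way, at 4.55 ± 1.17 and 3.61 ± 1.40 RPKM (limma adjusted p = 0.657). These 3 genes, and Ccnd1 and Egr1 further on, were singled out after their values were seen. At 150 µg/d 5 genes of the list were higher and 8 lower in Gcg-/- than in WT, and the median was −0.065, where that of all genes tested was −0.008.

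**Figure D3:**
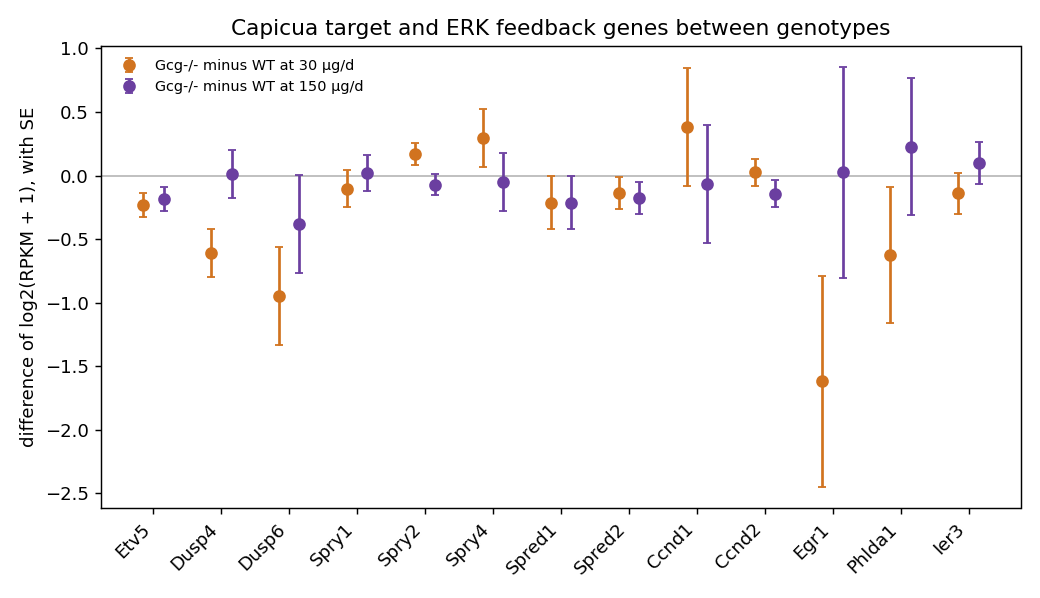
Difference of log2(RPKM + 1), Gcg-/- minus WT (vertical axis), with limma's SE, for the 13 tested genes of the Capicua target and ERK feedback list at 30 µg/d (orange) and 150 µg/d (purple). Of these genes 9 lie below 0 at 30 µg/d and 8 at 150 µg/d, and none passed.

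In uninfused liver the same list had 11 genes higher and 2 lower in Gcg-/-, with a median of 0.13. Ccnd1, cyclin D1, averaged 25.3 ± 26.5 RPKM in uninfused Gcg-/- and 5.13 ± 0.698 in WT liver (n = 3 each). It was at 55.9 RPKM in library 4, which raised the mean and the SD, and at 9.47 in its lowest Gcg-/- library. That lowest value still lay above the highest uninfused WT library, at 5.84. Of all genes tested 24.8% did not overlap between these groups. Egr1 varied as widely, between 2.31 and 111 RPKM over the uninfused libraries and those at 30 µg/d in WT. With no infusion against 150 µg/d in Gcg-/- liver 10 of the 13 were lower at 150 µg/d and 3 higher, with a median of −0.21, and that of all genes was −0.04. These comparisons share their uninfused libraries.

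Kinases, chaperones and RNA-binding proteins that act on ataxin-1 or Capicua formed a second list, with 18 of 19 genes tested. It includes Prkaca and Prkacb, the catalytic subunits of protein kinase A, the enzyme through which glucagon acts in hepatocytes and which also phosphorylates ataxin-1. Neither passed, and Prkaca stood at 22.4 RPKM and Prkacb at 12.3 in Gcg-/- at 30 µg/d against means over all libraries of 22.1 and 12.5. The only gene of the list to pass was Rps6ka1, which encodes RSK1, a kinase downstream of ERK that phosphorylates Capicua. It passed in Gcg-/- at 30 and at 150 µg/d against no infusion, where 0.0863% and 2.72% of all genes were called.

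Rps6ka1 was at 7.44 ± 1.25 RPKM in uninfused Gcg-/- (SD, n = 3), where all 3 libraries lay between 6.18 and 8.67. It fell to 3.74 ± 0.285 at 30 µg/d (n = 4, log2 difference −0.82 ± 0.141 SE, limma adjusted p = 0.0204) and to 4.26 ± 0.68 at 150 µg/d (n = 4, −0.68 ± 0.141, adjusted p = 0.0165). Both comparisons use the same uninfused libraries. In uninfused WT it stood at 4.54 ± 0.556 (n = 3), and the difference between the uninfused genotypes did not pass (adjusted p = 0.0502). The call at 30 µg/d was lost without library 4 (adjusted p = 0.16), 5 (0.116), 11 (0.0521) or 12 (0.0696), without libraries 4 and 13 (0.21) and in a fit of both groups alone (0.253). That at 150 µg/d was lost without library 4 (adjusted p = 0.1), 5 (0.0531) or 22 (0.06), without libraries 4 and 13 (0.0915) and with the groups alone (0.144). The value kept its sign in every one of these fits. Rps6ka1 is also made by blood and immune cells, and 7 Kupffer cell and macrophage markers summed to 138 to 145 RPKM in uninfused Gcg-/- liver, 112 to 127 at 30 µg/d and 77.7 to 129 at 150 µg/d. Of 7 endothelial markers 3 fell at 150 µg/d in the same comparison and none at 30 µg/d (limma), where 2.72% and 0.0863% of all genes were called. Fewer cells of a type and less RNA per cell cannot be told apart in bulk liver, and the part of either cell type in these results, or in that of Hdac2, was not tested.

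Corepressors and binding partners of ataxin-1 and Capicua were measured for 15 of 16 listed genes. Hdac3, a histone deacetylase of corepressor complexes, and Rbm17, a splicing factor that binds ataxin-1, passed in no comparison. Hdac2, another histone deacetylase, fell from 9.76 ± 0.408 RPKM (n = 3) in uninfused Gcg-/- to 7.44 ± 1.11 at 150 µg/d (n = 4, log2 difference −0.36 ± 0.0848 SE, limma adjusted p = 0.0308). It was the only called gene of the list, in a comparison where 2.72% of all genes were called. Its call was lost without library 4 (adjusted p = 0.127), 5 (0.057), 6 (0.0605), 21 (0.0918) or 22 (0.103), without libraries 4 and 13 (0.113) and with the groups alone (0.241). The median of the list lay between −0.06 and 0.02 in the 9 comparisons, and that of all genes between −0.04 and 0.01. None of the 19 genes of the RAS-ERK cascade listed, among them the receptors Egfr and Met, passed in any comparison.

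Genes named for other ataxias were examined beside Atxn1. Of 12 tested, from a list of 13 with Atxn2, Atxn3, Atxn7 and Htt, none was called higher in Gcg-/- liver at 30 µg/d against either comparison group. Atxn2, which encodes an RNA-binding protein unrelated to ataxin-1 in sequence, was lower there than in WT at the same dose (11.2 ± 0.465 against 16 ± 1.86 RPKM, n = 4 each). In this comparison 0.328% of all genes were called and 6.32% did not overlap. For Atxn2 the log2 difference was −0.47 ± 0.101 (SE, limma adjusted p = 0.0471), and the ranges of 10.6 to 11.7 and 13.3 to 17.2 RPKM did not overlap. This call was lost without library 7 (adjusted p = 0.147), 8 (0.0996), 10 (0.117), 11 (0.129), 12 (0.118), 13 (0.0902) or 14 (0.101), without libraries 4 and 13 (0.0782), with the groups alone (0.131) and with no filter on low values (0.0764). The sign did not change in any of them.

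Genes whose levels ran most like those of Atxn1 over the 22 libraries were found among 9971 others with a mean of at least 1 RPKM. Pearson's r of log2(RPKM + 1) was highest for Wdr18, a factor of ribosome assembly (0.777), Mrps25, a mitochondrial ribosome protein (0.766), Shmt1, the cytosolic serine hydroxymethyltransferase (0.747), Trmu, which modifies mitochondrial transfer RNAs (0.732), Baiap2, an actin regulator (0.721), and Aktip (0.718). These values describe points that share groups and libraries, and carry no test. The ranking depended on the measure: of the 10 genes named here as most like or unlike Atxn1, 3 were also named by Spearman's rho and 0 by the deviations from group means. Among these 6 Baiap2 had the widest step, from 8.11 ± 0.737 RPKM in uninfused Gcg-/- to 14.6 ± 4.30 at 30 µg/d, with libraries 12 and 14 the highest. Shmt1 stood at 88.2 ± 5.93 RPKM at 30 µg/d and 66.2 ± 7.01 with no infusion.

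The lowest r belonged to Pde4d, a phosphodiesterase that breaks down cAMP (−0.818), Grpel2, a cofactor of the mitochondrial chaperone (−0.797), Hnrnpl, a splicing regulator (−0.796), and Dynlt1b, a dynein light chain (−0.773). Pde4d was at 0.428 to 0.521 RPKM in the 4 Gcg-/- libraries at 30 µg/d, where Atxn1 was highest, and at 0.740 or more in each of the other 18. Its highest values, 2.26 and 2.21 RPKM, were in libraries 4 and 7, which held the 2 lowest values of Atxn1. Grpel2 was at 4.86 ± 0.578 RPKM in Gcg-/- at 30 µg/d and between 6.99 and 13.8 in the other libraries. A separation downward of this group from every other library was found for 6 of the 11590 genes (0.0518%). Nothing is read from it here, because these genes were picked by their r with Atxn1, which was chosen for its levels in these libraries. Dynlt1b has near-identical copies, and its values are uncertain. Among the other members, r with Atxn1 was 0.04 for Atxn1l, −0.28 for Cic and −0.40 for Etv5, and none of them was among the genes most like or unlike it.

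**Figure D4:**
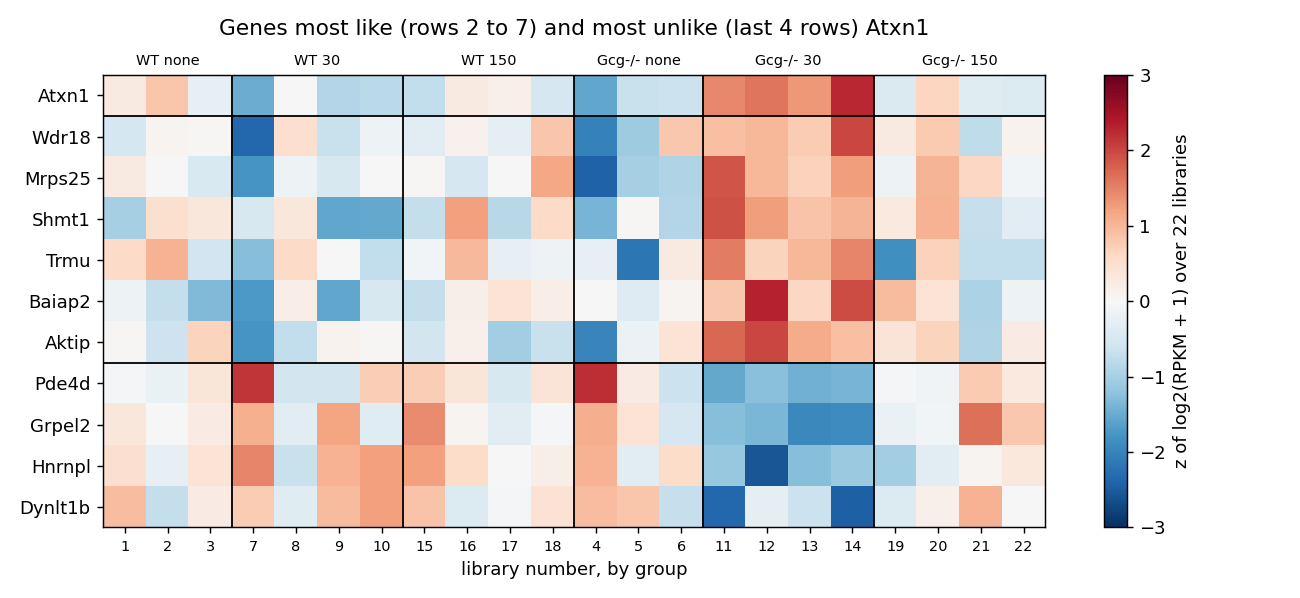
Levels of Atxn1 (top row), the 6 genes most like it and the 4 most unlike it in 22 libraries (columns, by group), as z of log2(RPKM + 1) over the libraries, red above and blue below the gene's mean. The 4 columns of Gcg-/- at 30 µg/d are red for Atxn1 and the genes like it and blue for the 4 unlike it, a pattern that the choice by r with Atxn1 favours.

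For the partners, the genes most alike were Xylt2 (r = 0.777), Mlh3 (0.769) and Jmjd7 (0.749) for Atxn1l, Atp6v0d1 (0.822), Zfp217 (0.798) and Hdlbp (0.78) for Cic, and Nsf (0.688), Srsf5 (0.675) and Amacr (0.674) for Etv5. Among the members themselves, r was 0.38 between Atxn1l and Etv5, −0.23 between Atxn1l and Cic and −0.09 between Cic and Etv5.

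Markers of other liver cells were set beside Atxn1, since a bulk level can also move with the mix of cells. In Gcg-/- at 30 µg/d 7 endothelial markers summed to 76.1 to 92.9 RPKM, 7 stellate cell and fibroblast markers to 96.0 to 118 and 7 cholangiocyte markers to 37.4 to 219. In uninfused Gcg-/- the sums were 92.6 to 95.7, 107 to 111 and 64.5 to 183, and in WT at 30 µg/d 71.7 to 88.1, 76.7 to 106 and 23.1 to 36.7. Lymphocyte markers, 7 genes, summed to 2.34 to 3.72 RPKM in Gcg-/- at 30 µg/d and to 3.33 to 4.65 in uninfused Gcg-/- liver. No marker of these lists was at 0 in all libraries of one of these groups. The Kupffer cell and macrophage sums given above for Gcg-/- at 30 µg/d lay below those of uninfused Gcg-/- liver without overlap, and within the 70.5 to 161 RPKM of WT at 30 µg/d. The endothelial, stellate, cholangiocyte and lymphocyte sums overlapped those of uninfused Gcg-/- liver. Against WT at 30 µg/d the cholangiocyte sums lay higher without overlap. They were mostly Spp1, at mean RPKM of 110 in Gcg-/- at 30 µg/d, 118 in uninfused Gcg-/- and 23.0 in WT at 30 µg/d. Of 4 cholangiocyte markers tested between genotypes at 30 µg/d, 3 were higher and 1 lower, and 0 were called (limma), where 0.328% of all genes were. The part of these cells in the level of Atxn1 was not tested.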

How the data were processed

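Liver polyA RNA was extracted with Trizol and made into strand-specific KAPA libraries, per the labels' protocols. The authors deposited RPKM values for 24475 genes in 22 columns, 1 per library. CASAVA 1.8.2, FastQC and the build GRCm38 are listed per the submitters' processing notes. Which aligner, counter and annotation were used is not given in the sources used here. Sample titles gave the groups, and their running numbers name the libraries and pair none. Values of log2(RPKM + 1) of 11590 genes (mean of at least 0.5 RPKM) entered limma 3.58.1 (R 4.3.3) with 6 groups, no covariate and a mean-variance trend. Calls required a Benjamini-Hochberg adjusted p under 0.05, taken over all genes. The fit was tested on simulated data with independent normal noise, for the 7 pairs of groups only. That does not check it for outlying libraries or for differences between responses. Depth was the read total that made low values of 3973 single-transcript genes whole: 62.4 to 67.5% came within 0.1 of a read, where chance gives 20%. This was too few for a count model.

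The genes and lists were chosen with earlier results of these data known. A member's difference is printed where it was called, the groups did not overlap or it was at least 0.3 in size, with ranges otherwise; genes most like Atxn1 are the 6 highest and 4 lowest Pearson r. Alternatives were other pseudocounts, filters, scalings, weights and samples. Antisense genes within Atxn1 and promoter windows of Atxn1 and Etv4 were not analysed here. Some listed genes are not reported here by name.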

Additional observations from a re-analysis of the deposited data

Results flagged for a closer look

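Within groups of 4 libraries, 2 values stood farther from the rest than Dixon's 95% limit allows, of 20 groups examined, and chance gives about 1 in 20. Atxn1 in Gcg-/- at 150 µg/d was at 3.96 RPKM in library 20, with the next library at 2.68. Etv4 in the same group was at 0.14 RPKM in library 19, an estimated 4 reads, with the next at 0.0579. Libraries 20, 21 and 22 each held an estimated 2 reads. Dixon's limit is not made for such tied counts, so nothing is read from this flag.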

How the results depend on the processing

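With a pseudocount of 0.1 in place of 1 the difference of Atxn1 in response at 30 µg/d was 2.04 in place of 1.59, and leaving out single libraries gave 1.46 to 1.71. Its tested difference, Gcg-/- against WT at 150 µg/d, changed sign without library 15, 18 or 20 (range −0.0861 to 0.0945) and was called in no setting. None of Atxn1l, Cic and Etv5 was called in any comparison under any alternative run. Over all genes, single libraries changed the number called from 179 to between 9 and 294 for Gcg-/- against WT with no infusion, from 315 to between 61 and 585 for 150 µg/d in Gcg-/-, from 34 to between 0 and 48 for 150 µg/d in WT, from 10 to between 1 and 33 for 30 µg/d in Gcg-/- and from 38 to between 9 and 45 for the genotypes at 30 µg/d. Other settings ranged from 22 to 945, 1 to 770, 8 to 438, 1 to 21 and 12 to 86 in the same order. For the genotypes at 150 µg/d the 3 calls became 0 to 4, for the difference in response at 30 µg/d the 1 call became 0 to 11, at 150 µg/d the 0 calls became 0 to 66 and for 30 µg/d in WT 0 to 4. With a filter of 2 RPKM Etv5 was not tested. No scaling moved the median of all genes by over 0.1. Of the 10 genes named as most like or unlike Atxn1, 3 were also named by Spearman's rho and 0 from deviations from the group means. Of the 3 named for each partner, 1 to 2 were named by rho and 0 to 2 from deviations. No paired analysis was possible because the libraries carry running numbers that no groups share. Etv4 has too few reads for any call, and Etv5 only 42 to 103.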
